A study of Macaca fascicularis with 44 samples.

Results

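Syncytiotrophoblast (STB) cells were set against cytotrophoblast (CTB) cells of the same libraries in single-cell RNA profiles of cynomolgus monkey (Macaca fascicularis) embryos. Counts were summed per library and per cell class of the authors' annotation, and a library was kept where it held at least 3 STB and at least 5 CTB cells. The rule left 19 of 44 libraries, from 6 of 9 embryos. They held 98 of the 111 STB cells and 412 of the 549 CTB cells, which is 510 of the 3682 annotated cells. STB and CTB of 1 library were compared as a pair, over all genes.

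All embryos were wild type and were grown in vitro from expanded blastocysts that had been made by sperm injection. Extraembryonic tissue was removed at dissection, so the trophoblast profiled here is what was left on the embryonic bodies after that step. By the annotation, the kept libraries came from 1 embryo each at E16 (2 libraries), E18 (1 library), E20 (6 libraries), E23 (6 libraries), E24 (2 libraries) and E25 (2 libraries), with the day counted from fertilization. Day and embryo can therefore not be told apart. For 1 of the E24 libraries, library 27, the title and the time label give different days, so the class by day and class by embryo terms over libraries were fitted without it. It is part of the pairs, and of every value summed or left out per embryo, where it counts to E24 as annotated.

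In the primate placenta CTB are the mononuclear, dividing epithelial cells, which rest on a basement membrane and exit the cell cycle to fuse. STB is the multinucleated layer that forms by this fusion and grows no further by division of its own nuclei. It faces maternal blood, secretes chorionic gonadotropin and steroid hormones, and carries nutrients to the embryo. The transcription factor GCM1 and retroviral envelope proteins called syncytins are known in human for driving the fusion.

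A summed STB profile held 3 to 11 cells (median 5) and 330513 to 3035818 counts, against 7 to 34 cells (median 23) and 961025 to 11153092 counts in a summed CTB profile. In the mean over libraries STB had close to the same number of counts per cell as CTB, but single pairs differed in either direction. The mean log2 ratio of the library medians was 0.049 with an SD of 0.89, and STB was higher in 10 of 19 libraries (exact paired permutation test, two-sided, p = 0.814). At 20000 counts per cell, drawn without replacement, a median STB cell showed 3160 ± 407 genes and a median CTB cell 3499 ± 214 genes (SD, n = 19 libraries). The STB value was higher in 2 of 19 libraries, and the mean difference was -338 genes (exact paired permutation test, two-sided, p = 0.000145). Over the 6 embryos the difference was -420 genes, with STB higher in 0 of 6 (exact p = 0.0313, the smallest p that 6 pairs allow). Without drawing to a fixed count the difference was -458 genes, with STB higher in 7 of 19 libraries (exact p = 0.0945). Thinning left out 5 STB and 19 CTB cells with fewer counts than that, and no cell name occurred in more than 1 library.

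Library 43, the only one of E18, stands apart. Its 4 STB cells showed a median of 2056.5 genes at 20000 counts, against 2759.5 to 3702 in the STB of the other 18 libraries, while its CTB showed 3327. The class by embryo terms are given with and without it, while other values by embryo include it. In the annotation STB is a single cluster, number 16, and CTB is made of clusters 0, 12 and 14, which hold 286, 138 and 125 cells. In the kept libraries cluster 12 supplied 137 of the 165 CTB cells of E20, cluster 14 supplied 112 of the 122 of E23, and cluster 0 supplied all CTB of E16, E18, E24 and E25. For E20 and E23 the embryo and the kind of CTB in a pair can therefore not be told apart. The other kept embryos all have CTB of cluster 0. A fit against CTB of 1 cluster took the libraries with at least 3 STB cells and at least 5 CTB cells of that cluster. For cluster 12 these were all of E20, and for cluster 14 all of E23. A call lost against either of these clusters thus rests on a single embryo and fewer libraries.

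The classes come from clustering of the same expression values, so the adjusted p-values between them order genes and are no test against chance. With edgeR's quasi-likelihood test, the library as block and Benjamini-Hochberg adjustment, a gene was called at an adjusted p below 0.05. Of 7967 genes tested, 3600 were called (45.2%). These were 1096 higher in STB (13.8% of the genes tested) and 2504 lower in STB (31.4%). When each library gave only as many CTB cells as it had STB cells, 2245 of 6622 genes were called (33.9%), of which 1047 were higher in STB (15.8%) and 1198 lower (18.1%). The excess of lower calls thus moved with the number of cells summed. For the lists, the calls with equal cells are given below, and for single lower genes only in part. Where nothing is said of a lower gene, it is not given here whether its call held with equal cells. Libraries of 1 embryo share their animal. With counts summed per embryo, 16.4% of 9380 genes were called, 872 higher in STB (9.3%) and 665 lower (7.09%). The median log2 fold change over all genes was -0.43 with TMM scaling, -0.49 with RLE factors and -0.60 with total counts, and fold changes are to be read relative to that shift. Counts of calls in each list below are likewise to be read against the shares of all genes, 13.8% higher and 31.4% lower. With equal cells those shares were 15.8% higher and 18.1% lower.

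The split by abundance shows where the 2 forms of the comparison part. Among genes up to a mean of 5 on the log2 CPM scale (CPM are counts scaled to 1000000 per summed profile), the median fold change was -0.83 with all CTB cells and -0.25 with equal cells. In that bin 162 of 3588 genes tested were called higher in STB and 1162 lower. With equal cells it was 133 higher and 260 lower of 2163. The filter on low counts was applied in each form, so the medians and calls are over unlike sets of genes. Between 7 and 8 on that scale the medians were -0.087 and 0.021. There the 227 higher and 239 lower calls of 766 genes compare with 227 higher and 185 lower ones of 781.

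**Figure D1:**
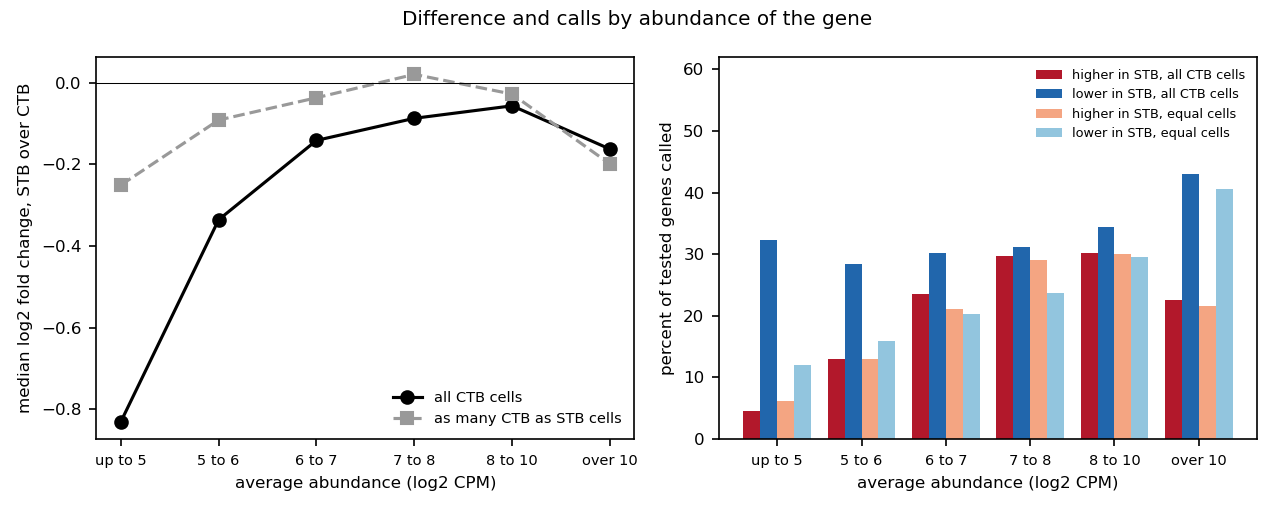
Median log2 fold change (STB over CTB) and percentage of genes called higher or lower in STB, by bin of mean log2 CPM, with all CTB cells of a library and with equal cells. In the lowest bin the median was -0.83 with all CTB cells and -0.25 with equal cells, and above it the curves lie closer together.

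The STB label was checked against 12 markers of STB, of which 10 are in the table. Their summed level ran from 17493 to 92130 CPM in STB (median 40341), against 804 to 4765 CPM in CTB (median 1803), and was higher in STB in 19 of 19 libraries. By its medians, 35731 CPM in STB and 1348 CPM in CTB, CGA alone makes up most of that sum. All 7 markers that could be tested were called higher in STB, also with equal cells. These were CGA, SDC1, HSD3B1, ERVFRD-1, GCM1, ENDOU and SLC40A1. CYP19A1, the aromatase that marks human STB, had 11 counts in the STB of library 6 and 0 in every other STB and CTB profile. TFPI2 and KISS1 failed the filter on low counts. With a looser filter (at least 10 counts in at least 3 sums of a class) their log2 fold changes were 1.49 ± 0.82 and 0.34 ± 0.78 (SE), and neither was called.

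The 12 CTB markers gave a less even picture. Their sum ran from 1043 to 14982 CPM in STB (median 5003), against 2944 to 10391 CPM in CTB (median 5120), and was higher in STB in 9 of 19 libraries. PAGE4, a trophoblast gene of the cancer-testis family, makes up most of that sum, with 5611 ± 4095 CPM in STB and 4725 ± 2866 CPM in CTB (SD, n = 19), and was not called. Of 11 tested, TP63, TEAD4, ITGA6, MET, CDH1 and KRT7 were called lower in STB, and GATA3, a trophoblast factor that both layers use, was called higher. EGFR, BCAM and TFAP2C were not called, and ELF5 was at 0 in all STB profiles. With equal cells 8 could be tested, 1 was called higher and 3 lower. TEAD4, ITGA6 and MET kept their call, TP63 and CDH1 failed the filter, and KRT7 was not called. KRT7 also lost its call without single libraries (-0.42 on the log2 scale without library 43, for example).

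Markers of other cell types were compared in the same way. The sum for extravillous trophoblast ran from 219 to 4716 CPM in STB (median 1095), against 134 to 1053 CPM in CTB (median 355), and was higher in STB in 18 of 19 libraries. By its median, FSTL3 alone makes up a large part of the sum in STB. It is also on the hormone list, and its values are given there. Of its 8 tested members ITGA5, ITGA1, MMP2 and FSTL3 were called higher and PLAC8 lower, and with equal cells 5 of 8 were called higher and 0 lower, with a median log2 fold change of 1.62. MMP2 lost its call without single libraries (0.71 on the log2 scale without library 7, for example) and PLAC8 with equal cells (-0.89). The extraembryonic mesenchyme sum had a median of 595 CPM in STB (87 to 17540) and 620 CPM in CTB (140 to 3009), with 0 of 8 tested members called in either direction. The sums for amnion and ectoderm had medians of 183 CPM in STB (18.5 to 4198) and 241 CPM in CTB (51.0 to 721). Those for yolk sac endoderm had medians of 3.95 CPM in STB (0 to 1062) and 9.72 CPM in CTB (0 to 238). Those for blood and endothelium had medians of 393 CPM in STB (9.32 to 1381) and 162 CPM in CTB (72.0 to 341), with STB higher in 13 of 19 libraries. KRT5, KRT14, HBZ, GATA1 and SPI1 were at 0 in every STB profile. What part cells or RNA of other types have in single results was not tested.

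CGA, the common alpha chain of the glycoprotein hormones, was the most abundant of the STB markers. It ran from 16155 to 88050 CPM in STB (median 35731), against 592 to 4018 CPM in CTB (median 1348). The groups did not overlap. The means were 44014 ± 21738 CPM in STB and 1520 ± 882 CPM in CTB (SD, n = 19), a log2 fold change of 5.07 ± 0.25 (SE). Over all cells of an embryo, CGA was lowest in E16 STB (26837 CPM, against 988 CPM in E16 CTB) and highest in E18 STB (88050 CPM, against 1215 CPM in E18 CTB). A count of CGA was seen in 100% of STB cells, 98.5% of CTB cells, 98.8% of extraembryonic mesenchyme cells and 98.3% of extravillous trophoblast cells. These classes thus differed in the level and hardly in the detection, and the mesenchyme pooled to 363 CPM.

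The genes of fusion came next. ERVFRD-1, the envelope protein known as syncytin-2 in human, had 2.65 to 454 CPM in STB (median 63.9), against 0 to 3.63 CPM in CTB (median 0.157). Its STB level was above the CTB level of the same library in all 19, although the lowest STB value lay below the highest CTB ones. The log2 fold change was 7.66 ± 0.49. It was counted in 51.0% of STB cells, 5.83% of CTB cells and 3.5% of extraembryonic mesenchyme cells.

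GCM1, the factor that acts upstream of the syncytins in human, differed less. It had 182 to 967 CPM in STB (median 350), against 22.6 to 262 CPM in CTB (median 66.9), with STB higher in 19 of 19 libraries and a log2 fold change of 2.48 ± 0.24. The ranges overlapped. CTB of cluster 12 pooled to 227 CPM, against 60.6 CPM in cluster 0 and 42.7 CPM in cluster 14, and CTB of E20, the embryo with nearly all of cluster 12, pooled to 221 CPM. SDC1, a surface proteoglycan used as an STB marker, had 16.6 to 1026 CPM in STB (median 134) and 0.339 to 17.7 CPM in CTB (median 3.45). Its log2 fold change was 6.00 ± 0.48, but extraembryonic mesenchyme cells also pooled to 32.5 CPM.

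Of 22 genes of fusion and retroviral envelopes, 11 could be tested. ERVFRD-1, SDC1, SYDE1, GCM1 and CGA were called higher in STB, and CDH1 and ANO6 lower. With equal cells 8 could be tested, and 5 were called higher and 0 lower. ANO6 lost its call there (-1.54 on the log2 scale) and without E20 (-1.38). SYDE1, a GTPase-activating protein, had 31.4 ± 25.3 CPM in STB and 5.54 ± 5.75 CPM in CTB, with a log2 fold change of 3.36 ± 0.65. CDH1, the epithelial cadherin, was at 0 in the STB of 12 of 19 libraries and at 0 in the CTB of 0 of 19. Its means were 1.98 ± 5.80 CPM in STB and 18.2 ± 11.4 CPM in CTB, and it was too low to be tested with equal cells.

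**Figure D2:**
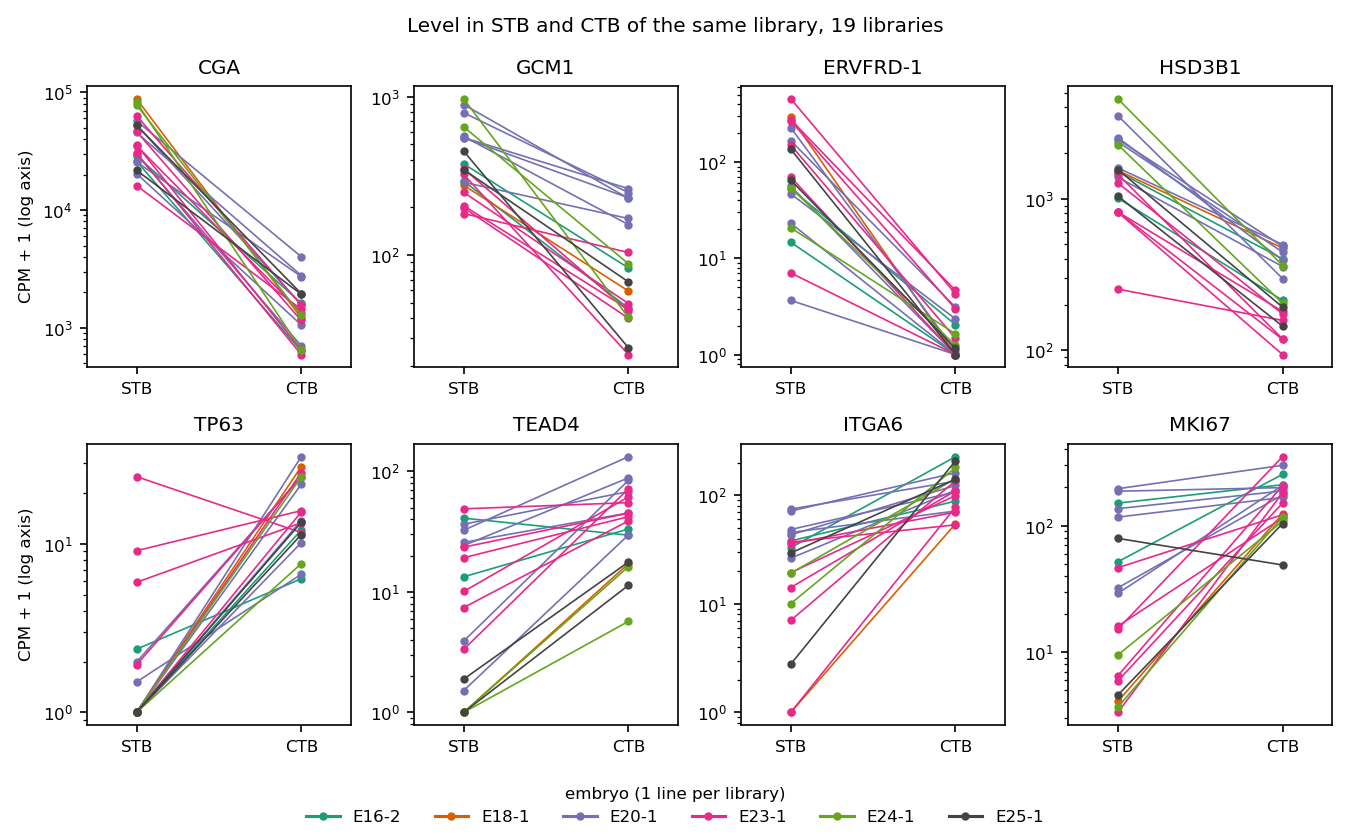
CPM plus 1 on a log axis for 8 genes, with STB left and CTB right and 1 line per library, coloured by embryo. For CGA, GCM1, ERVFRD-1 and HSD3B1 all 19 lines fall to the right, and for TP63, TEAD4, ITGA6 and MKI67 at least 17 of 19 climb.

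Steroid synthesis genes were higher in STB wherever they were called. CYP11A1, the enzyme that makes pregnenolone from cholesterol, had 158 to 1040 CPM in STB (median 451), against 10.3 to 89.1 CPM in CTB (median 31.3), and the groups did not overlap. Its log2 fold change was 3.87 ± 0.31. HSD3B1, which turns pregnenolone into progesterone, had 252 to 4552 CPM in STB (median 1506), against 92.7 to 497 CPM in CTB (median 212). It was higher in STB in 19 of 19 libraries, with a log2 fold change of 2.76 ± 0.18. CTB was itself well above the 21.3 CPM of pooled extraembryonic mesenchyme. FDXR, the reductase that passes electrons to CYP11A1, differed by 2.40 ± 0.17 and was higher in 19 of 19 libraries.

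Of the 25 genes of that list 11 were tested. 5 were called higher in STB, CYP11A1, FDX1, FDXR and HSD3B1 among them, and none lower, with equal cells as well. FDX1, the ferredoxin of the same chain, differed by 0.81 ± 0.24 with STB higher in 14 of 19 libraries, and lost its call against clusters 12 and 14. STAR, the cholesterol carrier of gonads and adrenals, averaged 1.08 CPM in STB and 0.195 CPM in CTB and could not be tested.

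Among hormones and secreted factors 8 of 36 listed genes could be tested, and 6 were called higher in STB and 0 lower. Besides CGA these were LEP, INSL4, FSTL3, GDF15 and ADM. FSTL3, a secreted activin antagonist, had 42.5 to 3132 CPM in STB (median 717), against 2.08 to 341 CPM in CTB (median 60.0), and was higher in STB in 19 of 19 libraries. GDF15, a stress hormone of human pregnancy, averaged 474 ± 682 CPM in STB and 9.02 ± 6.46 CPM in CTB, with STB higher in 18 of 19. LEP, leptin, was uneven. It ran from 0 to 5224 CPM in STB (median 207), against 1.04 to 71.0 CPM in CTB (median 16.7), was higher in STB in 16 of 19 libraries, and was not called against clusters 12 or 14 alone. INSL4, an insulin-like placental peptide of primates, differed by 1.79 ± 0.36 and was not called against cluster 14 alone.

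Several hormone genes were too rarely counted for the main filter. LHB, whose reads may be shared with near-identical chorionic gonadotropin beta copies, had 0 to 462 CPM in STB (median 27.5), against 0 to 8.32 CPM in CTB (median 0.508). GAST, gastrin, had 0 to 4288 CPM in STB (median 25.5), against 0 to 34.1 CPM in CTB (median 0.179). INHA, the alpha chain of inhibin, had 0 to 979 CPM in STB (median 8.55), against 0 to 2.17 CPM in CTB (median 0). The looser filter gave log2 fold changes of 6.26 for LHB, 5.75 for GAST and 5.37 for INHA. Their levels differed widely between STB libraries, with the highest library far above the median in each.

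Of 43 trophoblast transcription factors 29 could be tested. 13 were called higher in STB and 7 lower, against 15 and 4 of 28 with equal cells. TBX3, a T-box repressor, had 210 to 1359 CPM in STB (median 412), against 2.78 to 54.5 CPM in CTB (median 17.6). ESRRG, an orphan receptor that controls placental hormone genes in human, had 136 to 516 CPM in STB (median 299), against 0.987 to 72.8 CPM in CTB (median 23.9). HOPX, a homeodomain protein without DNA binding, had 460 to 5380 CPM in STB (median 2204), against 1.05 to 178 CPM in CTB (median 48.3). For all 3 genes the groups did not overlap, with log2 fold changes of 5.04 ± 0.38, 4.02 ± 0.29 and 5.75 ± 0.33.

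Factors that CTB already carries differed by less. BHLHE40, a basic helix-loop-helix repressor, averaged 802 ± 338 CPM in STB and 167 ± 104 CPM in CTB. TFAP2A averaged 405 ± 160 CPM in STB and 106 ± 51.0 CPM in CTB, and GATA2 538 ± 279 CPM in STB and 138 ± 65.1 CPM in CTB. All 3 were higher in STB in 19 of 19 libraries. GATA3 averaged 489 ± 267 CPM in STB and 236 ± 98.1 CPM in CTB, was higher in 17 of 19, and was not called against cluster 12 alone. TFAP2C, another factor of early trophoblast, averaged 37.7 ± 33.8 CPM in STB and 34.8 ± 13.9 CPM in CTB and was not called.

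OVOL1, a zinc finger repressor that acts in human trophoblast on the way to STB, had unlike fold changes in the fits against single CTB clusters. It had 0 to 1038 CPM in STB (median 193), against 2.80 to 283 CPM in CTB (median 29.4), with STB higher in 17 of 19 libraries. The highest STB values were those of E20, where CTB was also highest. CTB of cluster 12 pooled to 202 CPM, against 26.9 CPM in cluster 0 and 31.3 CPM in cluster 14. The log2 fold change was 3.70 against cluster 0, 2.03 against cluster 12 and 2.58 against cluster 14. These fits also differ in their STB, where OVOL1 pooled to 541 CPM in E20 (cluster 12) and 132 CPM in E23 (cluster 14). OVOL1 was at 0 in the STB of library 43.

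TP63, the factor of epithelial stem cells and of villous CTB, went the other way. It was at 0 in the STB of 12 of 19 libraries and reached 24 CPM in 1, against 5.20 to 31.8 CPM in CTB (median 12.7). STB was lower in 18 of 19 libraries, library 8 being the exception, with a log2 fold change of -4.58 ± 0.75. It failed the filter with equal cells, and was not called against cluster 14 alone. TEAD4, the Hippo pathway factor of early trophoblast, had 0 to 47.8 CPM in STB (median 9.08), against 4.69 to 131 CPM in CTB (median 41). It was lower in STB in 18 of 19 libraries, with a log2 fold change of -2.30 ± 0.49. It was called with equal cells, but neither with counts summed per embryo nor against any single CTB cluster.

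SPDEF, an ETS factor of secretory epithelia, averaged 21.4 ± 63.7 CPM in STB and 112 ± 84.5 CPM in CTB, with a log2 fold change of -4.0 ± 0.54. NR2F2, an orphan nuclear receptor, averaged 28.9 ± 26.9 CPM in STB and 136 ± 69.0 CPM in CTB, and was lower in STB in 19 of 19 libraries. PPARG, a nuclear receptor that the mouse placenta needs, averaged 38.9 ± 35.8 CPM in STB and 145 ± 59.0 CPM in CTB and was lower in 18 of 19. All 3 were called with equal cells. NR2F2 and PPARG were not called against cluster 14 alone, and PPARG not with at least 5 STB and 10 CTB cells a library.

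**Figure D3:**
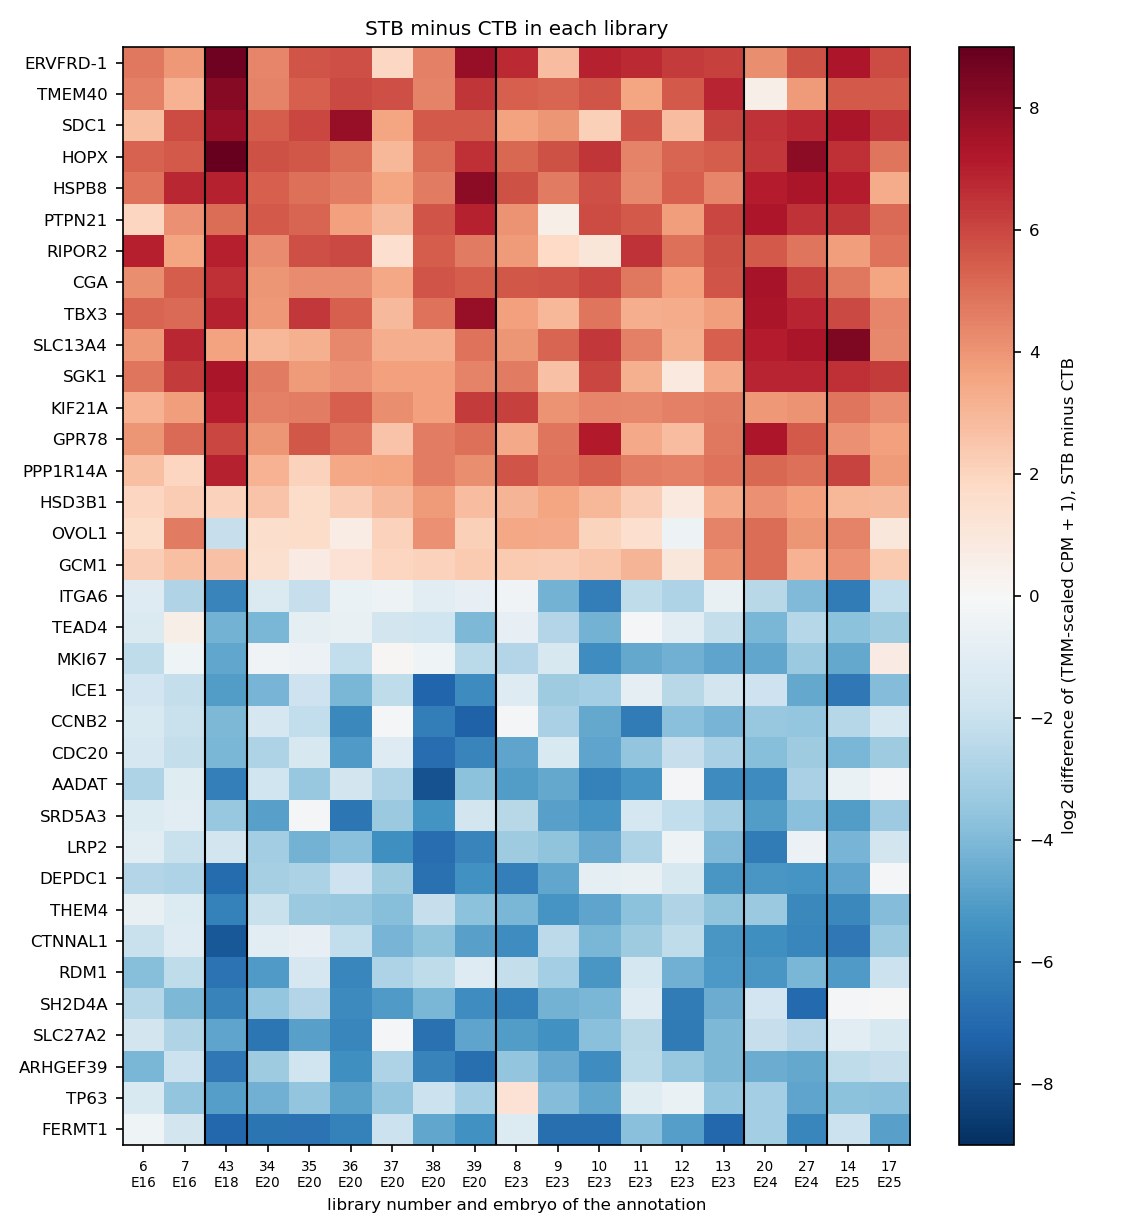
Log2 difference of TMM-scaled CPM plus 1, STB minus CTB, for 35 genes (rows) in each of the 19 libraries (columns, grouped by embryo). CGA, TBX3 and HOPX are above 0 in every column and FERMT1 and CDC20 below it, while OVOL1, TP63, TEAD4 and MKI67 have 1 or 2 columns of the other sign.

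Cell cycle genes were lower in STB nearly throughout. Of 36 listed, 33 were tested, 29 were called lower in STB and 0 higher, against a background of 31.4% lower. The median log2 fold change was -1.93, against -0.43 over all genes. With equal cells 17 of 31 were called lower and 0 higher, with a median of -1.56 against -0.10 over all genes. The direction was the same with RLE factors and total counts, where 30 were called lower.

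CCNB1, the cyclin of mitotic entry, had 4.66 to 176 CPM in STB (median 93.8), against 116 to 529 CPM in CTB (median 349). CDC20, the activator of the anaphase-promoting complex, had 0.516 to 88.0 CPM in STB (median 7.36), against 24.7 to 258 CPM in CTB (median 120). MKI67, the common marker of dividing cells, had 2.33 to 194 CPM in STB (median 28.1), against 47.8 to 349 CPM in CTB (median 174). STB was the lower of the pair in 18 of 19 libraries for CCNB1, 19 of 19 for CDC20 and 17 of 19 for MKI67. The log2 fold changes were -2.05 ± 0.27, -3.38 ± 0.40 and -2.42 ± 0.45. The MKI67 difference was -3.79 against CTB of cluster 14, but -2.18 against cluster 0 and -0.88 against cluster 12, and neither of these was called. No STB library was without cell cycle RNA: in none were MKI67, CCNB1, TOP2A, CDC20 or TYMS at 0.

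CCNE1, the cyclin of S phase entry, was 1 of 4 tested genes of that list that were not called. It had 3.07 to 2160 CPM in STB (median 224), against 142 to 617 CPM in CTB (median 358), and STB was the higher in 8 of 19 libraries. CDK2, RRM2 and GINS2 were the others. TYMS, thymidylate synthase, averaged 221 ± 195 CPM in STB and 556 ± 216 CPM in CTB and was lower in 19 of 19. PARP1 and RBBP7, which act in DNA repair and on chromatin, belonged to the 8 genes with a symbol whose groups did not overlap in the lower direction (9 genes in all, 0.113% of those tested). PARP1 had 2.90 to 156 CPM in STB, against 173 to 636 CPM in CTB, and RBBP7 had 21.4 to 290 CPM in STB, against 307 to 699 CPM in CTB.

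Genes of cell cycle exit were called in both directions. 5 of 17 tested were called higher in STB and 8 lower, against 4 and 5 of 13 with equal cells. With total counts as scaling 3 were higher and 10 lower, and with RLE factors 5 and 10. GADD45G, a stress and differentiation sensor, had 51.2 to 981 CPM in STB (median 497), against 1.75 to 173 CPM in CTB (median 47.2), and was higher in STB in 19 of 19 libraries, with a log2 fold change of 4.00 ± 0.45. CDKN1A, the inhibitor p21, averaged 173 ± 153 CPM in STB and 30.7 ± 16.9 CPM in CTB, was higher in 17 of 19, and was not called against cluster 0 alone. CCND1, the cyclin of growth factor response, had 0 to 436 CPM in STB (median 3.03), against 62.1 to 310 CPM in CTB (median 106), and was lower in 17 of 19. RB1 averaged 15.9 ± 18.2 CPM in STB and 50.5 ± 37.0 CPM in CTB and was lower in 18 of 19, but was not called against clusters 12 or 14 alone.

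Among p53 targets and genes of apoptosis 6 of 12 tested were called higher in STB and 2 lower, with equal cells too, and 6 and 3 with total counts or RLE factors. SESN1, an inhibitor of growth signalling, had 91.5 to 630 CPM in STB (median 288), against 13.5 to 74.6 CPM in CTB (median 42.8), and the groups did not overlap. MDM2, the ligase that degrades p53, differed by 1.88 ± 0.25 with STB higher in 18 of 19, though it was not called against cluster 14 alone. BAX, a promoter of apoptosis, averaged 41.7 ± 30.9 CPM in STB and 85.1 ± 23.2 CPM in CTB and was lower in 16 of 19, with a log2 fold change of -1.22 ± 0.33, but was not called against any 1 of the 3 CTB clusters alone.

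Of 34 adhesion and basement membrane genes 27 were tested, with 4 called higher in STB and 13 lower, and a median log2 fold change of -0.68, against -0.43 over all genes. With equal cells the counts were 4 higher and 5 lower of 23, and the share of lower calls was then close to the 18.1% of all genes. ITGA6, the laminin-binding integrin chain of CTB, had 0 to 73.7 CPM in STB (median 28.4), against 52.5 to 226 CPM in CTB (median 110). ITGB4, its hemidesmosome partner, had 0 to 16.9 CPM in STB (median 0.515), against 10.4 to 42.3 CPM in CTB (median 22.8). EPCAM, an epithelial adhesion molecule, had 0 to 118 CPM in STB (median 38.4), against 74.9 to 450 CPM in CTB (median 213). Each of the 3 was lower in STB in 19 of 19 libraries and was called with equal cells, with log2 fold changes of -2.19 ± 0.40, -4.44 ± 0.62 and -2.47 ± 0.34. ITGA6 was not called against cluster 12 alone.

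CDH3, placental cadherin, averaged 23.2 ± 27.7 CPM in STB and 113 ± 58.5 CPM in CTB and was lower in 19 of 19 libraries, though not called against cluster 0 alone. MET, the receptor of hepatocyte growth factor, averaged 9.44 ± 13.5 CPM in STB and 57.3 ± 23.5 CPM in CTB, and was not called against cluster 14 alone. FERMT1, which links integrins to actin, showed the steepest fall of the genes named by size. It had 0 to 52.1 CPM in STB (median 1.78), against 46.6 to 170 CPM in CTB (median 119), a log2 fold change of -4.67 ± 0.62. ITGA1, ITGA5, DSP and JUP were the 4 called higher. JUP, the catenin of desmosomes, averaged 160 ± 126 CPM in STB and 57.1 ± 30.7 CPM in CTB.

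In the Hippo pathway 1 of 14 tested genes was called higher in STB and 6 lower, with 1 and 4 of 12 with equal cells. TEAD3 was the higher one, with 67.6 ± 26.3 CPM in STB and 17.7 ± 10.4 CPM in CTB, in contrast to its relative TEAD4. CCN1, a secreted target of YAP1, averaged 145 ± 259 CPM in STB and 392 ± 178 CPM in CTB, with STB lower in 17 of 19 libraries. The factor YAP1 averaged 22.4 ± 24.4 CPM in STB and 47.6 ± 15.8 CPM in CTB, and its call was lost against each CTB cluster and with counts summed per embryo. For EGF and WNT signalling few genes were tested. They gave 2 higher and 0 lower of 5 and 0 higher and 3 lower of 11 in STB, against 1 and 0 of 4 and 0 and 0 of 6 with equal cells. The share of WNT genes called lower was below the 31.4% of all genes. With total counts as scaling 1 gene of EGF signalling was called higher.

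Among keratins, KRT23, an acidic keratin, had 0 to 3520 CPM in STB (median 881), against 21.6 to 247 CPM in CTB (median 91.8), and was higher in STB in 18 of 19 libraries. KRT10 averaged 223 ± 144 CPM in STB and 115 ± 43.6 CPM in CTB, but was not called against clusters 0 or 12 alone. KRT19 was not called.

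Of 42 genes for glucose, amino acid and ion transport, 24 were tested, 11 were called higher in STB and 3 lower, against 9 and 2 of 21 with equal cells. SLC2A1, the main glucose transporter of the placenta, had 990 to 6895 CPM in STB (median 3185), against 425 to 1765 CPM in CTB (median 766), with STB higher in 19 of 19 libraries and a log2 fold change of 1.82 ± 0.15. Iron genes at both ends of the passage were higher. TFRC, the transferrin receptor, had 290 to 2502 CPM in STB (median 774), against 67.9 to 259 CPM in CTB (median 135), and the groups did not overlap. SLC40A1, the iron exporter ferroportin, had 69.1 to 2723 CPM in STB (median 671), against 14 to 119 CPM in CTB (median 57.6).

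SLC7A8, a light chain of amino acid exchange, averaged 716 ± 441 CPM in STB and 50.5 ± 29.4 CPM in CTB, with STB higher in 18 of 19 libraries. SLC43A2, a carrier of large neutral amino acids, differed by 2.95 ± 0.34 and SLC38A9, the lysosomal arginine sensor, by 2.73 ± 0.24, both with STB higher in 19 of 19. SLC13A4, a sulfate carrier of the placenta, had 121 to 1223 CPM in STB (median 317), against 0 to 49.8 CPM in CTB (median 19.5), without overlap. SLC16A1, the monocarboxylate carrier MCT1, was lower, with 103 ± 121 CPM in STB and 257 ± 146 CPM in CTB, but was not called against clusters 0 or 12 alone.

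Lipid, vitamin and drug transport gave 5 higher and 3 lower of 14 tested, and 5 and 2 of 10 with equal cells. DHRS9, a retinol dehydrogenase, had 0 to 1113 CPM in STB (median 135), against 0 to 12.4 CPM in CTB (median 3.35), with a log2 fold change of 6.42 ± 0.53. SLC27A4, a fatty acid transporter, had 5.31 to 85.5 CPM in STB (median 17.8), against 0 to 10.4 CPM in CTB (median 2.45), and was higher in STB in 19 of 19. SLC27A2, of the same family, had 0 to 83.6 CPM in STB (median 3.03), against 2.99 to 290 CPM in CTB (median 110), and was lower in 19 of 19. Its fold change was -1.98 against cluster 0, where it was not called, -5.65 against cluster 12 and -4.50 against cluster 14. LRP2, the endocytic receptor megalin, averaged 10.0 ± 12.5 CPM in STB and 76.2 ± 28.8 CPM in CTB.

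MFSD2A, which carries lysolipids with docosahexaenoic acid and binds syncytin-2 in human, was below the main filter. It had 0 to 189 CPM in STB (median 39.6), against 0 to 3.55 CPM in CTB (median 0.151), and the looser filter gave 7.08 ± 0.68. SLC10A1, the bile acid carrier of hepatocytes, had 0 to 972 CPM in STB (median 19.6), against 0 to 8.55 CPM in CTB (median 0), with 7.21 ± 0.59 under the looser filter. It was at 0 in the STB of 5 libraries and the CTB of 11. STRA6, the receptor for retinol-binding protein, averaged 89.5 ± 60.4 CPM in STB and 16.2 ± 9.14 CPM in CTB, and was not called against cluster 12 alone. STRA6 and DHRS9 were also the 2 of 6 tested genes called higher among genes of retinoid and vitamin D response.

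Angiogenic and vasoactive genes had the highest median fold change of the function lists apart from the hormones, 2.32 over 10 tested genes. With equal cells the median was 3.05, below the 3.33 of the fusion genes. 7 angiogenic and vasoactive genes were called higher in STB and 2 lower, with equal cells as well. PGF, placental growth factor, had 64.5 to 1592 CPM in STB (median 461), against 12.4 to 163 CPM in CTB (median 41.4), with STB higher in 19 of 19 libraries. FLT1, the receptor of PGF and VEGFA that is shed in soluble form by human STB, had 9.32 to 2332 CPM in STB (median 678), against 4.20 to 381 CPM in CTB (median 48.9). ENG, a coreceptor for TGF-beta, had 0 to 732 CPM in STB (median 143), against 0.114 to 13.9 CPM in CTB (median 2.65). VEGFA averaged 137 ± 82.8 CPM in STB and 36.5 ± 24.2 CPM in CTB. The log2 fold changes were 3.10 ± 0.25, 3.36 ± 0.44, 5.90 ± 0.43 and 2.05 ± 0.23. FLT1 and ENG are also made by endothelium. Of the markers of that type PECAM1 averaged 136 ± 159 CPM in STB and 50.1 ± 48.4 CPM in CTB, with STB higher in 14 of 19 libraries. CDH5 averaged 207 ± 246 CPM in STB and 107 ± 66.3 CPM in CTB, with STB higher in 9 of 19. Neither was called, and the part of endothelial RNA in FLT1 and ENG was not tested.

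The receptors NRP1 and NRP2 were the 2 lower ones. NRP1 averaged 39.1 ± 52.9 CPM in STB and 135 ± 66.7 CPM in CTB, with STB lower in 18 of 19 libraries, and was not called against cluster 14 alone. NRP2 averaged 30.3 ± 61.7 CPM in STB and 72.3 ± 31.9 CPM in CTB, and lost its call with counts summed per embryo.

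Of the 12 tested genes of the maternal interface 6 were called higher in STB and 2 lower, against 5 and 2 with equal cells. CD55, which takes apart the C3 convertase, had 847 to 5304 CPM in STB (median 2962), against 82.7 to 653 CPM in CTB (median 308), without overlap and with a log2 fold change of 3.53 ± 0.17. CD59, which blocks the membrane attack complex, had 416 to 5069 CPM in STB (median 1439), against 249 to 923 CPM in CTB (median 539), with STB higher in 19 of 19 libraries. CD46, a cofactor of C3b cleavage, differed by 0.96 ± 0.29 and lost its call against each CTB cluster and with counts summed per embryo. IL1RN, the interleukin-1 receptor antagonist, averaged 318 ± 403 CPM in STB and 12.2 ± 11.3 CPM in CTB, and was not called against cluster 12 alone.

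Of 11 tested interferon response genes 0 were called higher in STB and 7 lower, against a background of 31.4% lower. With equal cells only 2 of 8 were called lower, against a background of 18.1%. IFI6, an interferon-induced mitochondrial protein, averaged 604 ± 436 CPM in STB and 963 ± 474 CPM in CTB, and was not called against any single CTB cluster. Coagulation and protease genes gave 5 higher and 1 lower of 14 tested, against 6 and 0 of 13 with equal cells. With total counts or RLE factors 3 were called higher and 1 lower. TFPI, the inhibitor of the tissue factor pathway, had 21 to 2639 CPM in STB (median 305), against 39.3 to 176 CPM in CTB (median 85.3), with STB higher in 18 of 19 libraries.

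Genes of microvilli and the apical surface split within families. EZR, the linker of membrane to actin in microvilli, had 803 to 4816 CPM in STB (median 2898), against 284 to 684 CPM in CTB (median 380), without overlap. EPS8L2, a relative of the actin capper EPS8, averaged 52.0 ± 33 CPM in STB and 6.69 ± 5.76 CPM in CTB. EPS8 itself averaged 2.41 ± 3.67 CPM in STB and 31.7 ± 16.3 CPM in CTB, and was lower in STB in 19 of 19 libraries. PLS1, which bundles the actin of microvilli, averaged 8.70 ± 9.85 CPM in STB and 87.2 ± 57.9 CPM in CTB, and was lower in 18 of 19. Of the 13 tested 5 were called higher in STB and 3 lower, against 4 and 2 of 11 with equal cells. EPS8 was not called against cluster 12 alone, nor PLS1 against cluster 14.

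In the unfolded protein and secretory pathway 10 of 22 tested genes were called higher in STB and 0 lower, with equal cells as well. With total counts as scaling it was 9 higher and 1 lower. The differences were small next to those of the hormones, with a median log2 fold change of 0.52. SEC61A1, the channel into the endoplasmic reticulum, averaged 218 ± 75.4 CPM in STB and 101 ± 42.6 CPM in CTB, and was higher in STB in 19 of 19 libraries. SSR1, a translocon subunit, differed by 0.90 ± 0.15 and HSPA5, the chaperone BiP, by 0.88 ± 0.20, both without a call against cluster 12 alone.

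Hypoxia and glycolysis genes split, with 9 of 20 called higher in STB and 6 lower, against 9 and 4 of 19 with equal cells. EPAS1, a hypoxia-inducible factor, averaged 379 ± 195 CPM in STB and 169 ± 41 CPM in CTB. ENO1, a glycolytic enzyme, averaged 836 ± 511 CPM in STB and 1732 ± 630 CPM in CTB, with STB lower in 18 of 19 libraries. EPAS1 was not called against cluster 12 alone and ENO1 not against cluster 0 alone.

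Immediate early and heat shock genes, whose level is known to move with dissociation, gave 5 higher and 3 lower of 12 tested, and 5 and 2 of 11 with equal cells. HSPB1 had 1597 to 8305 CPM in STB (median 3640), against 359 to 1151 CPM in CTB (median 933), without overlap. HSPB8, another small heat shock protein, had 145 to 2247 CPM in STB (median 613), against 1.75 to 46.0 CPM in CTB (median 15.6). FOS went the other way, with 1329 ± 1039 CPM in STB and 2327 ± 1483 CPM in CTB, though it was not called against any single CTB cluster. Of 11 tested imprinted genes 3 were called higher and 2 lower, a smaller lower share than the 31.4% of all genes. With equal cells 3 were higher and 1 lower. With total counts as scaling it was 2 higher and 5 lower. PHLDA2, a maternally expressed limiter of placental growth, averaged 1727 ± 1058 CPM in STB and 509 ± 170 CPM in CTB. PEG3, paternally expressed, averaged 158 ± 178 CPM in STB and 584 ± 224 CPM in CTB. Both held in 19 of 19 libraries.

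**Figure D4:**
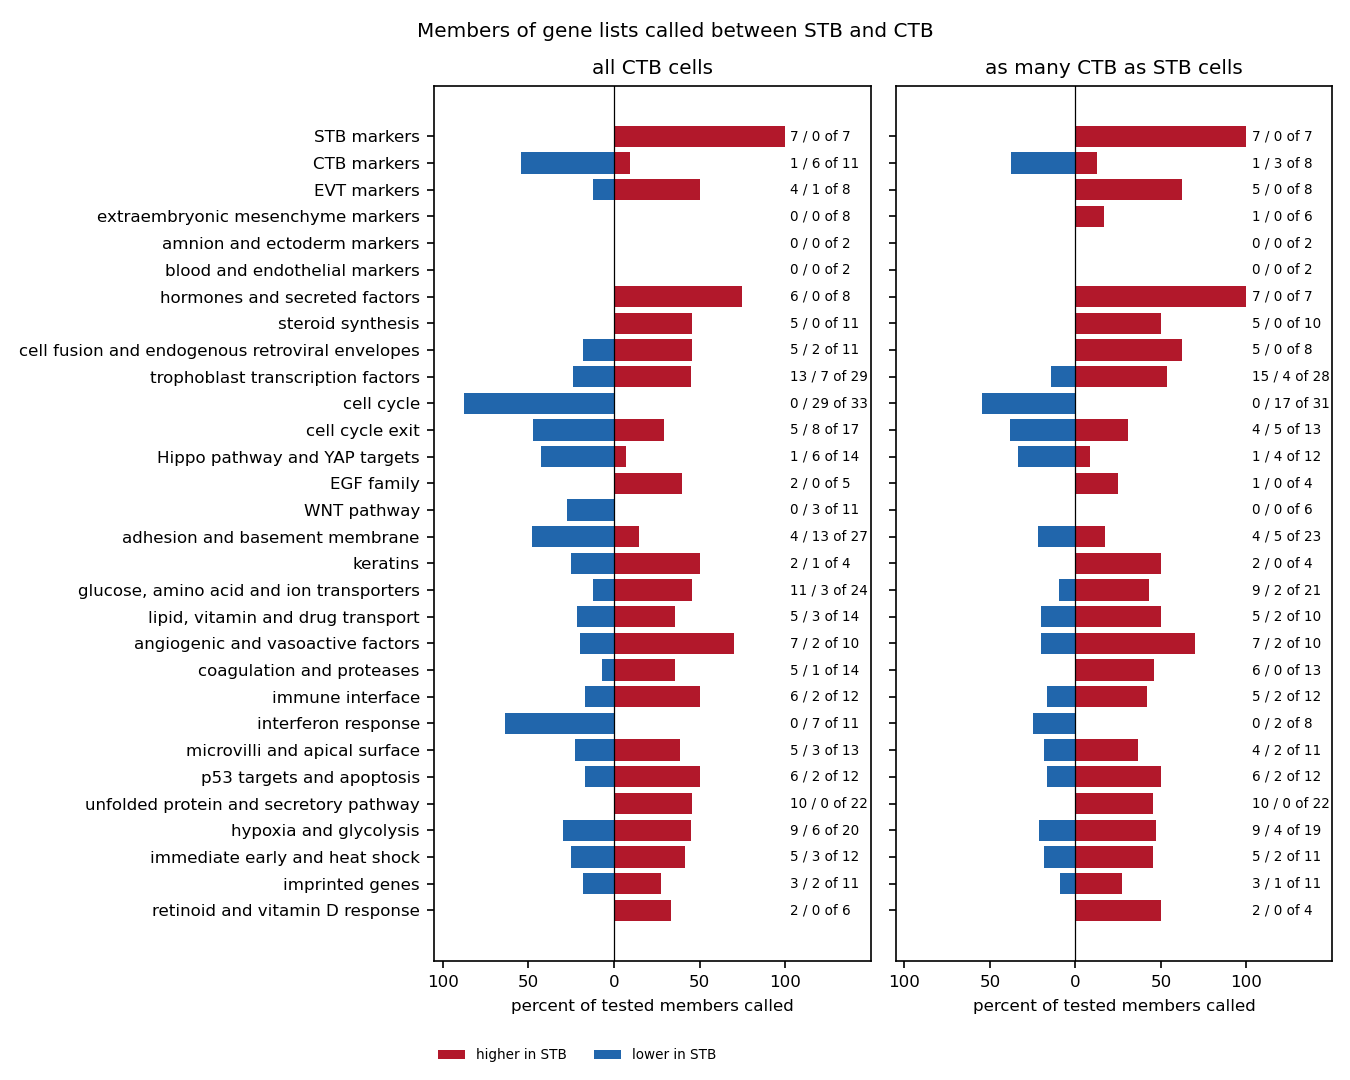
Percentage of the tested genes of each list that were called higher or lower in STB, with all CTB cells of a library (left) and with equal cells (right). Cell cycle genes have the longest bar on the lower side in both panels, with 29 of 33 and 17 of 31, and angiogenic factors have 7 of 10 higher in both.

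The genes with the largest differences were taken by a fixed rule: the 14 with the largest rise and the 14 with the largest fall among called genes with a symbol, the same sign in every library and a mean of at least 50 CPM in the higher class. 169 genes met the conditions as higher in STB and 131 as lower. The 14 higher ones were ERVFRD-1, TMEM40, SDC1, HOPX, HSPB8, PTPN21, RIPOR2, CGA, TBX3, SLC13A4, SGK1, KIF21A, GPR78 and PPP1R14A. SGK1, a kinase of sodium transport, had 155 to 1842 CPM in STB (median 857), against 0.350 to 120 CPM in CTB (median 35.6). KIF21A, a kinesin, had 68.3 to 2673 CPM in STB (median 311), against 3.34 to 50.8 CPM in CTB (median 9.60). TMEM40, a transmembrane protein, differed by 6.87 ± 0.52 and GPR78, an orphan receptor, by 4.71 ± 0.30.

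The 14 lower ones were FERMT1, ARHGEF39, SLC27A2, SH2D4A, RDM1, CTNNAL1, THEM4, DEPDC1, LRP2, SRD5A3, AADAT, CDC20, CCNB2 and ICE1. Their log2 fold changes ran from -4.67 ± 0.62 for FERMT1 to -3.20 ± 0.40 for ICE1, a subunit of a complex for small nuclear RNA transcription. ICE1 had 0.516 to 99.4 CPM in STB (median 25.3), against 142 to 374 CPM in CTB (median 209), and these groups did not overlap. All 28 genes were called with equal cells and with counts summed per embryo, which use the same cells that picked them. Against single clusters some lost their call. These were SLC27A2, AADAT and CCNB2 against cluster 0, RDM1 against cluster 12 and DEPDC1 against cluster 14. For HOPX the difference was largest against CTB of cluster 0 (6.91, against 5.29 for cluster 12 and 5.38 for cluster 14), and likewise for SGK1 (6.28, 4.13 and 3.55) and TBX3 (6.25, 5.31 and 3.73).

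**Figure D5:**
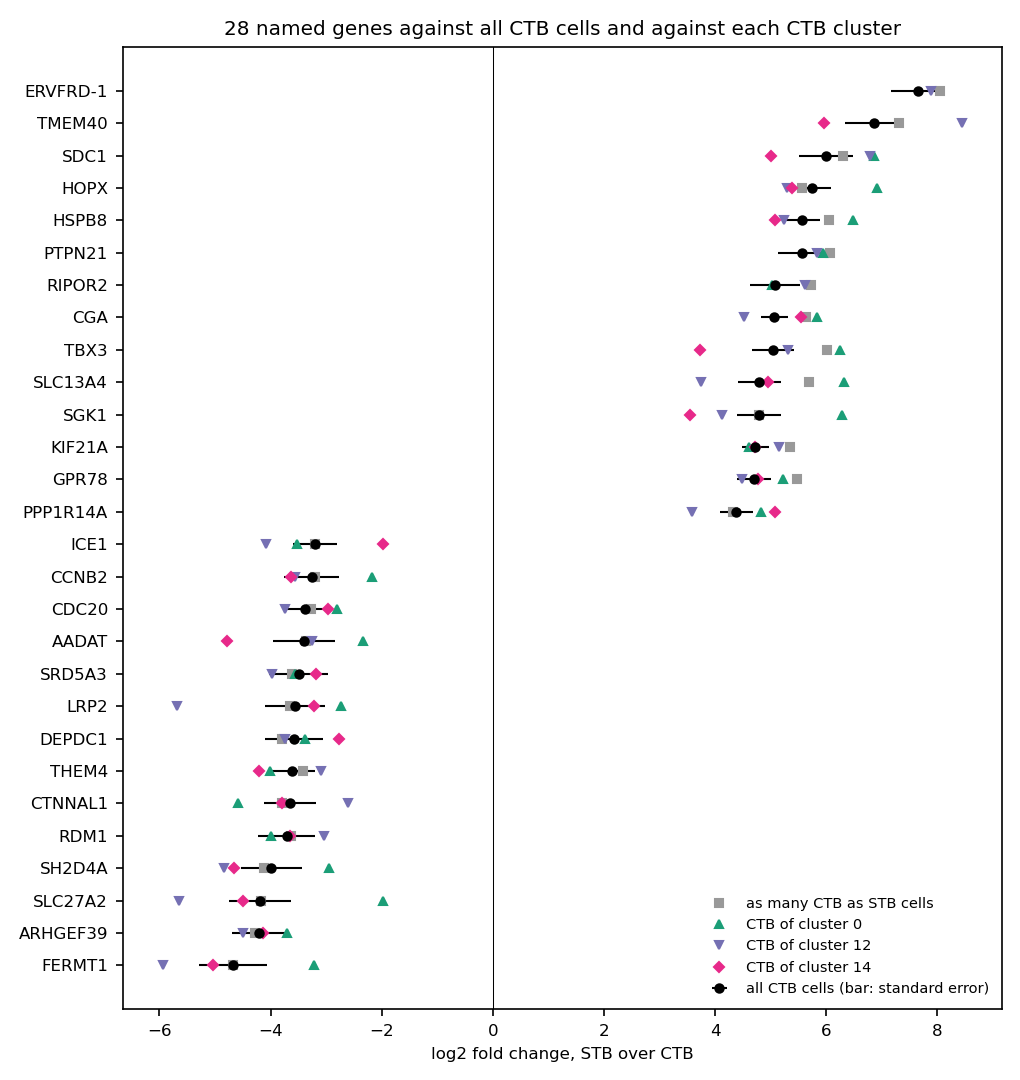
Log2 fold change (STB over CTB, with SE) of the 28 genes with the largest differences, against all CTB, against equal cells and against CTB of cluster 0, 12 and 14. CGA lies between 4.51 (cluster 12) and 5.83 (cluster 0), and SLC27A2 between -5.65 (cluster 12) and -1.98 (cluster 0). A missing mark means that the gene was not tested in that comparison.

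For 36 genes (0.452% of those tested) the lowest of 19 STB values lay above the highest of 19 CTB values. 33 of them have a symbol. Besides those given above they include CD164, a sialomucin, with 982 to 5282 CPM in STB and 325 to 733 CPM in CTB. ST3GAL4, a sialyltransferase, had 122 to 1713 CPM in STB and 8.15 to 82.1 CPM in CTB. ARID5B, a chromatin factor, had 227 to 880 CPM in STB and 13.3 to 165 CPM in CTB. LCP1, an actin bundler of leukocytes, was among the 9 with the reverse order, with 4.61 to 173 CPM in STB and 241 to 453 CPM in CTB. Of the tested genes 710 carry only an Ensembl identifier, such as ENSMFAG00000045627 (log2 fold change 7.04) and ENSMFAG00000031914 (-4.18).

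Against CTB of 1 cluster at a time fewer libraries entered and fewer genes were called. STB against cluster 0 (8 libraries, from E16, E18, E20, E24 and E25) called 14.7% of 7367 genes, 597 higher in STB (8.1%) and 489 lower (6.64%). Against cluster 12 (6 libraries, all of E20) 9.39% of 8799 were called, 433 higher (4.92%) and 393 lower (4.47%). Against cluster 14 (6 libraries, all of E23) 14.6% of 6612 were called, 476 higher (7.2%) and 491 lower (7.43%). The calls were also followed from embryo to embryo, as a description. Of the genes called higher in STB without an embryo, 70.7% (E18) to 94.7% (E23) had the same sign in the embryo left out. Among all genes 30.6% to 45.9% had that sign. For genes called lower the range was 79.9% (E16) to 95.9% (E23), against 54.0% to 68.5% of all genes.

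Whether the difference between STB and CTB changed with the day was asked with a class by day term over the 18 libraries whose day labels agree. edgeR's quasi-likelihood test called 0 of 8001 genes (0%), with 345 at an unadjusted p under 0.05, and DESeq2 called 2. With a term for each embryo, 40 of 8001 genes were called (0.5%, with 915 at an unadjusted p under 0.05), and without E18 1 of 8058 (0.0124%, with 575 unadjusted). The gene called in both was PERP.

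PERP, a p53 target of desmosomes, pooled to 1615 CPM in STB and 349 CPM in CTB of E24 and to 973 CPM in STB and 215 CPM in CTB of E25. In E16, E20 and E23 the order was the reverse, with 158, 307 and 103 CPM in STB against 249, 545 and 242 CPM in CTB. The adjusted p of the embryo terms was 0.00478 with E18 and 0.00320 without it (edgeR quasi-likelihood test, Benjamini-Hochberg). In E18 it pooled to 505 CPM in STB and 358 CPM in CTB.

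EZR and KRT23 were called with E18 only (adjusted p = 0.0333 and 0.0188, edgeR quasi-likelihood test, and 0.205 and 0.419 without E18). EZR pooled to 906 CPM in STB of E16, against 319 CPM in its CTB, and to 3893 CPM in STB of E24, against 437 CPM in its CTB. KRT23 was at 0 in STB and 28 CPM in CTB of E18, and between 354 and 1987 CPM in STB of the other embryos, against 27.6 to 148 CPM in their CTB. Embryo and day cannot be told apart in these terms. E20 and E23 also differ from the other embryos in the kind of CTB, while E16, E18, E24 and E25 all have CTB of cluster 0.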

How the data were processed

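Single cells of cultured cynomolgus embryos were profiled by RNA-seq. Per the submitters' processing notes, cutadapt 1.15, STAR 2.6.0a and HTSeq 0.10.0 were used. Not given in the sources used here are the genome build, the strand setting, how doublets were treated, and whether a count is a read or a molecule. The authors deposited whole-number counts per gene and cell, without normalization, for 21834 genes (5594 without a symbol), and a table that gives each cell its library, embryo, class and cluster. In all 3682 cells the summed counts equal the annotated total.

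Counts were summed per library and class, and tested with edgeR 4.0.16 in R 4.3.3 (filterByExpr, TMM, glmQLFit and glmQLFTest, Benjamini-Hochberg adjustment, threshold 0.05). STB and CTB of a pair come from the same library, and this pairing is the block. Libraries of 1 embryo are not separate animals, so p-values measure mostly the spread between libraries. CPM use the total of each sum, and means have the SD over 19 libraries. Differences by library use a pseudocount of 1 CPM. Class by day and class by embryo terms used the 18 libraries with agreeing day labels. Depth was tested with exact paired permutation tests over libraries (Python 3.11.15, numpy 2.4.6, seed 1), and numbers of genes after drawing 20000 counts per cell.

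Members and gene lists (31 lists, 644 genes, 582 in the table) were chosen with earlier results of these data known. The genes named by size are the 14 largest rises and falls among called genes with 1 sign in every library and a mean of at least 50 CPM in the higher class. Members of the lists were named freely. Single genes outside lists and rule (PERP, and named genes without overlap) were chosen after their values were seen. Alternatives were DESeq2 1.42.0, limma 3.58.1 on mean CPM per cell, other scalings and filters, single CTB clusters, sums per embryo, no block, and each library or embryo left out. Equal cells, embryo terms and gene numbers paired over embryos were chosen after seeing the data. The paired class contrast and the class by day term, both with edgeR's quasi-likelihood test, were checked on simulated counts. The other fits were not. The simulated libraries were drawn independently at a single dispersion for all genes, and the simulated day term kept library 27 as E24. The check therefore does not show how the fits behave where libraries share an embryo. Some results on single genes are not reported here.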

Additional observations from a re-analysis of the deposited data

Results flagged for a closer look

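In 72 sets of 6 libraries from 1 embryo, 5 STB minus CTB differences lay far from the other libraries of their embryo. Chance gives such a value in about 1 of 20 sets. SLC27A2 differed by -0.16 (log2 of TMM-scaled CPM plus 1) in library 37 of E20, against -6.71 to -4.77 in the others. AADAT differed by -7.84 in library 38 of E20 (-3.69 to -1.62 in the others) and by -0.16 in library 12 of E23 (-6.07 to -4.63 in the others). ERVFRD-1 differed by 2.75 in library 9 of E23 (6.18 to 6.92 in the others), and KIF21A by 6.13 in library 8 of E23 (4.07 to 4.68 in the others). These sums hold few STB cells each, and the part of cell number was not tested.

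For 9 genes named in the text the STB minus CTB difference varied between embryos, as tested with class by embryo terms over 18 libraries (edgeR quasi-likelihood test, Benjamini-Hochberg). The adjusted p was 0.00478 for PERP, 0.0188 for KRT23, 0.0297 for RBBP7, 0.0333 for EZR, 0.0333 for TYMS, 0.0335 for CCNE1, 0.0365 for HSPA5, 0.0365 for PPP1R14A and 0.0474 for TFPI. Without E18, whose only library stands apart, PERP was the one gene still called. For several of them E18 held the extreme value. HSPA5 pooled to 5588 CPM in STB and 480 CPM in CTB of E18, against 986 to 2135 CPM in STB and 413 to 1735 CPM in CTB of the other embryos. TFPI pooled to 2639 CPM in STB and 59.5 CPM in CTB of E18, against 153 to 794 CPM in STB and 56.2 to 149 CPM in CTB of the others. PPP1R14A, an inhibitor of myosin phosphatase, pooled to 312 CPM in STB and 70.6 CPM in CTB of E16, and to 3046 CPM in STB and 31.9 CPM in CTB of E18. Embryo and day cannot be told apart here, nor can the CTB cluster for E20 and E23. The other embryos all have CTB of cluster 0.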

How the results depend on the processing

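The number of genes called between STB and CTB (3600, of which 1096 higher in STB and 2504 lower) moved with the cells that were summed. It was 2245 with equal cells (1198 lower), 2015 with at least 5 STB and 10 CTB cells a library (1128 lower), 1537 with counts summed per embryo (665 lower), 1086 against cluster 0 (597 higher, 489 lower), 826 against cluster 12 (433 higher, 393 lower) and 967 against cluster 14 (476 higher, 491 lower). These fits hold fewer cells or fewer sums, and those against clusters 12 and 14 hold a single embryo each. Of the calls that could be tested with equal cells too, 946 of 1049 higher and 1192 of 2015 lower ones were shared. Without the replicate block, that is without pairing STB and CTB of a library, 1478 genes were higher and 1312 lower, and the cause was not tested. Without E20-1 1638 were lower. Leaving out single libraries gave 3272 to 3612 calls, 1007 to 1193 higher and 2158 to 2528 lower. DESeq2 called 2 genes by day against 0 with edgeR, and without E18-1 the embryo terms called 1 gene. Genes per cell differed by -286 to -368 at 20000 counts without single libraries, and by -458 without thinning (exact paired permutation p = 0.0945). The mean log2 ratio of counts per cell ran from -0.038 to 0.153 without single libraries. KRT7 turned sign against cluster 14 (0.30). Of 128 called genes among those named, 125 could be tested and were called without each library (1 could not be tested without some library), 122 without each embryo (3 could not be tested without some embryo), and 75 in every setting that gave a value. STB sums of a few cells limit what can be said of genes with low counts.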

Other observations

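Gene families outside the lists were looked at after their values had been seen, and are given as a description. The V-ATPase, the pump that acidifies lysosomes and other compartments, was mostly higher in STB, with 9 of 14 tested subunits called higher and 3 lower, against a background of 13.8% higher and 31.4% lower. With equal cells it was 9 higher and 1 lower, and with total counts or RLE factors 9 and 3. ATP6V0C, the ring subunit of the membrane part, averaged 603 ± 241 CPM in STB and 289 ± 101 CPM in CTB (SD, n = 19), and ATP6V0D1, of the same part, averaged 194 ± 82.6 CPM in STB and 75.9 ± 36 CPM in CTB. Both were higher in STB in 19 of 19 libraries. ATP6V1B2, the B subunit of the soluble part, was the one that stayed lower with equal cells, with 41.3 ± 32.4 CPM in STB and 129 ± 49.3 CPM in CTB.

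Tubulins were taken where a number follows TUBA, TUBB or TUBG in the symbol, which leaves out TUBB itself and includes the gamma tubulin TUBG1. Of 6 such genes tested, 5 were called lower in STB and 0 higher, against a background of 31.4% lower. With equal cells 3 of 5 were lower. TUBA1A averaged 609 ± 561 CPM in STB and 1472 ± 576 CPM in CTB, and was lower in STB in 19 of 19 libraries. Of 58 ribosomal protein genes 1 was called higher in STB and 37 lower, with a median log2 fold change of -0.32, which is above the median of all genes (-0.43). With equal cells 2 were higher and 29 lower of 56, with a median of -0.31 against -0.10 over all genes. Complex I of the respiratory chain gave 0 higher and 18 lower of 33 in STB, against a background of 31.4% lower, with a median of -0.43, the same as over all genes. With equal cells 16 were lower, against a background of 18.1%, with a median of -0.46 against -0.10 over all genes. Proteasome subunits gave 11 higher and 4 lower of 39, and 8 and 6 with total counts as scaling. The part that RNA length, RNA quality or cell damage has in these differences was not tested.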
